A study of Homo sapiens with 6 samples.

Results

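Messenger RNA for 43 cytokine and interferon receptor subunits was compared between azacitidine-resistant and azacitidine-sensitive K562 cells. The subunits were taken from a list of receptor names, covering 8 receptor families, that was chosen with earlier results of these data known. Each was matched by its Ensembl gene ID to the 61487 gene IDs of the deposited count table. All 43 were found. K562 is an established human chronic myeloid leukaemia line that carries the BCR-ABL1 fusion, and azacitidine is a cytidine analogue that inhibits DNA methylation when built into DNA. The resistant group was 3 libraries of K562 cells labelled resistant to azacitidine, and the sensitive group was 3 libraries of K562 cells labelled sensitive to it. Both groups are the same line grown in the same medium and without a stated treatment. Every library name in both groups ends in NT, a tag that the labels used here do not explain. How the resistant cells were derived, whether they are 1 clone, and whether drug was present at harvest are not given in the labels. Total RNA was sequenced. The contrast asks which receptor transcripts differ between the resistant and the sensitive cells.

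Type I and class 2 cytokine receptors have no kinase domain of their own. A ligand brings receptor chains together, JAK kinases bound to those chains are activated, and STAT proteins carry the signal to the nucleus. Several receptors share a chain (the common gamma chain IL2RG, the common beta chain CSF2RB or gp130, encoded by IL6ST), so the private chain sets which cytokine is read. Receptors of the IL-1 and IL-17 families signal through adaptor proteins instead. In K562 cells the BCR-ABL1 kinase is known to activate STAT5 without a cytokine.

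Of the 43 subunits, 34 had enough counts to be tested and 9 fell under the filter on low counts. Among the 34, 17 were lower in resistant cells and 1 was higher at a Benjamini-Hochberg adjusted p below 0.05 (edgeR quasi-likelihood test, adjusted over all 20891 genes tested), and 16 did not pass. Of all genes tested, 13.1% were lower and 9.83% were higher by this call. Calls of at least 2-fold lower covered 16 of the 34 subunits and 8.97% of all genes, and calls of at least 2-fold higher covered 0 of the 34 and 6.11% of all genes. The median log2 fold change, resistant over sensitive, was -1.22 over the 34 subunits and 0.03 over all genes tested. Of the 34 subunits, 26 (76.5%) had a value below 0, against 48.4% of all genes. Without both libraries numbered 3, which stand apart from the rest, 21 subunits were lower and 2 were higher. Scaled by library totals alone, 13 were lower and 1 was higher, and calls in the higher direction made up 58.9% of all calls over all genes, against 42.8% with TMM scaling. These counts describe the subunits that passed the filter, and are not independent of a list chosen with earlier results of these data known. A gene silent in 1 group can pass through the other group, as 4 subunits did through the sensitive libraries and 4 through the resistant libraries, and all 4 of the first kind (IL2RG, IL21R, CSF2RA and IL1RAP) were among the 17.

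Values are CPM (counts scaled to a common library total) with TMM-scaled library totals, in the order of replicates 1, 2 and 3 of each group. Total counts were 33007642 to 37991708 in the resistant libraries and 34924828 to 43006918 in the sensitive libraries, so that 3 counts, the limit allowed by a count of 0, corresponded to 0.0733 to 0.0902 CPM on this scale. The summed CPM of the 43 subunits was 324, 353 and 359 in resistant cells, against 676, 778 and 688 in sensitive cells. The first principal component, with 66.3% of the variance, separated the groups. The second, with 18.0%, set the libraries numbered 3 of both groups apart from the others, and receptor calls that change without both of those libraries are given with both values. Of 12 erythroid and progenitor markers of K562, 11 were tested and 1, LMO2, was lower in resistant cells (log2 fold change -0.94, adjusted p = 0.00583). The LMO2 call was lost without resistant replicate 2 (adjusted p = 0.0524). HBE1 was under the filter, with 24 counts over the resistant libraries and 2 over the sensitive ones. The 12 had a summed level of 1141, 1289 and 1938 CPM in resistant cells, against 1082, 1006 and 2141 CPM in sensitive cells, of which TFRC alone gave 591, 657 and 954 CPM in resistant cells, against 325, 347 and 1200.4 CPM in sensitive cells. Small nucleolar RNAs took 0.134% to 0.255% of counts in resistant libraries, against 0.442% to 0.732% in sensitive libraries, and the part of this difference in the receptor results was not tested. In bulk RNA, fewer cells that express a gene and less RNA per cell cannot be told apart.

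**Figure D1:**
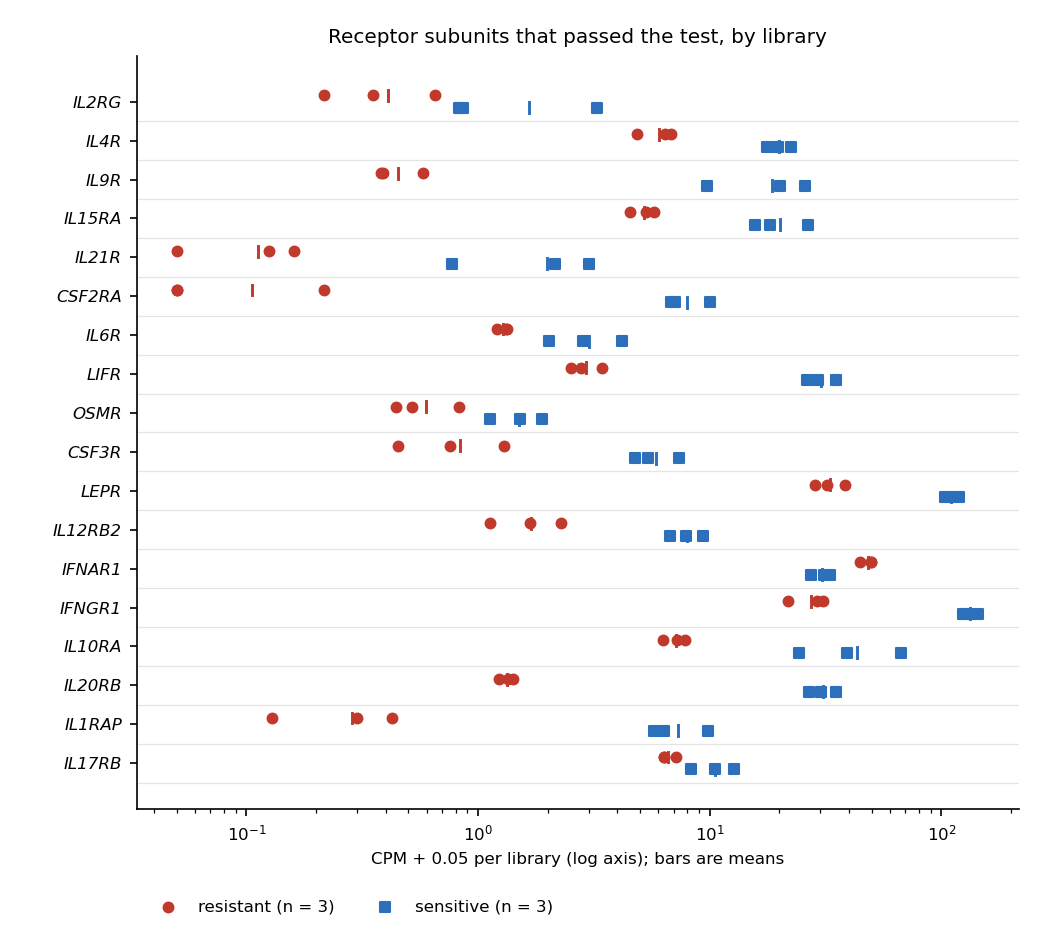
Level of each of the 18 receptor subunits that passed the test, as CPM + 0.05 on a log axis, with resistant libraries as red circles, sensitive libraries as blue squares and a bar at each mean. IL9R, LIFR, IL20RB, IL1RAP and CSF2RA show all resistant points far below all sensitive points, and IFNAR1 alone lies higher in the resistant libraries.

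**Figure D2:**
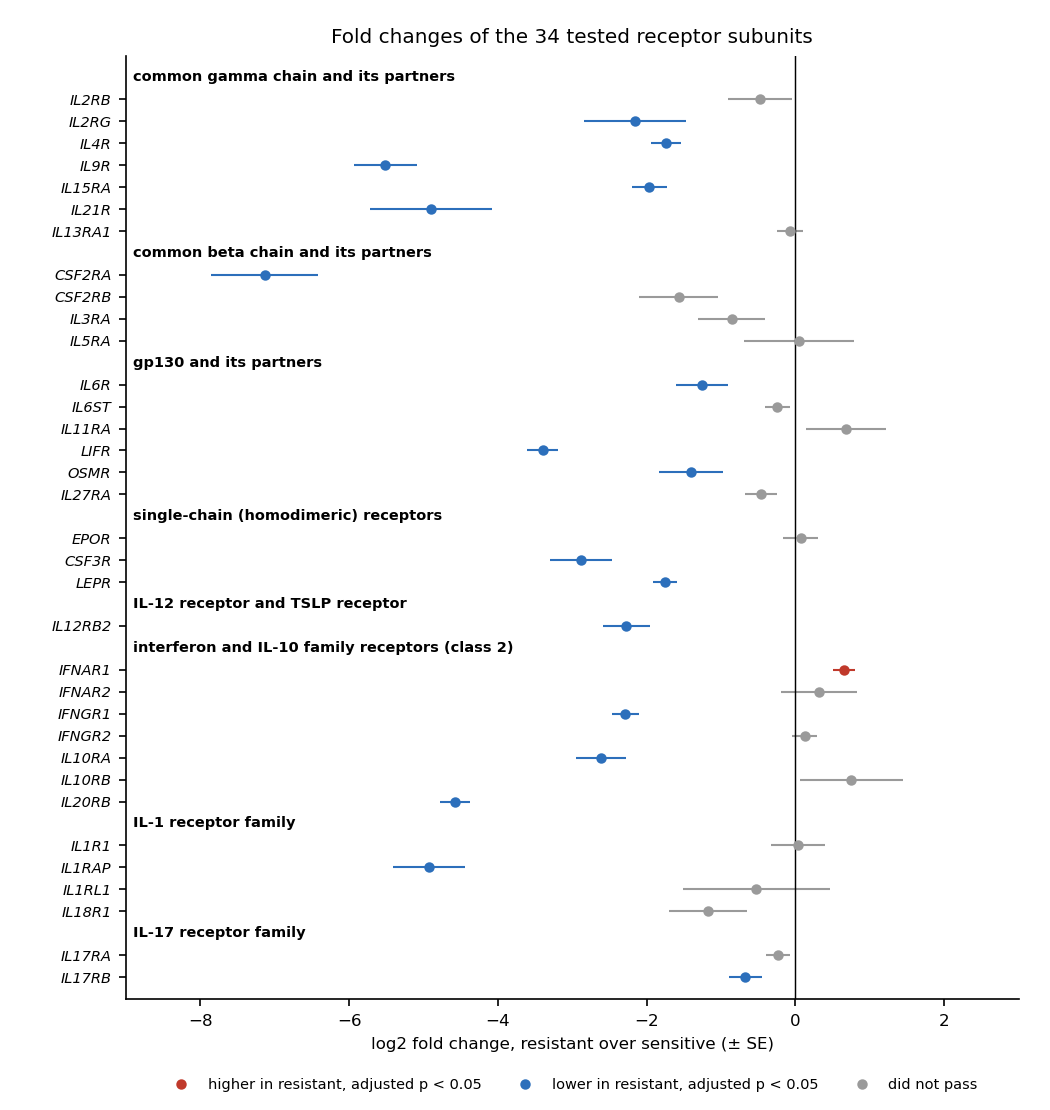
Log2 fold change, resistant over sensitive, for the 34 tested subunits grouped by receptor family, with bars of 1 SE. The 17 subunits called lower lie between -7.13 (CSF2RA) and -0.67 (IL17RB), and IFNAR1 at 0.65 is the subunit called higher.

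The 5 subunits with the most negative fold changes among those with 1 listed start were CSF2RA, IL9R, IL1RAP, IL21R and IL20RB. Their upstream sequences are shown because azacitidine acts on cytosine methylation, which in human DNA lies at CpG dinucleotides. No methylation was measured here. Each sequence is the 250 bases upstream of the RefSeq start on GRCh38.p14, all on the plus strand and taken from RefSeq, with CpG dinucleotides in capitals.
CSF2RA: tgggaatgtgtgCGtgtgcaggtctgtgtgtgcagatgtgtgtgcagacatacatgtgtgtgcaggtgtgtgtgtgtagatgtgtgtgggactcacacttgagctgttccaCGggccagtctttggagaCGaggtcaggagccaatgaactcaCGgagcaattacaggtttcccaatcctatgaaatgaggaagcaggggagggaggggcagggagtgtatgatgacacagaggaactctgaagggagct
IL9R: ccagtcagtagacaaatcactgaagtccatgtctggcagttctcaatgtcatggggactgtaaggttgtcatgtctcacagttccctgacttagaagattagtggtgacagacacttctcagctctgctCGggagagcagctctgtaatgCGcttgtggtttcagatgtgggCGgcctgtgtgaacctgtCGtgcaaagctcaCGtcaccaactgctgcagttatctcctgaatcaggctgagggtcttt
IL1RAP: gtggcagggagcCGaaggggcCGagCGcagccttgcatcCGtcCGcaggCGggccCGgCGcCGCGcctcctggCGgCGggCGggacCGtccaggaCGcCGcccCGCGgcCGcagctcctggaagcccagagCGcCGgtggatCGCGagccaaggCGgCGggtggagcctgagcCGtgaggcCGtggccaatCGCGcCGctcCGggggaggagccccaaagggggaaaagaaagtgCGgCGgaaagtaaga
IL21R: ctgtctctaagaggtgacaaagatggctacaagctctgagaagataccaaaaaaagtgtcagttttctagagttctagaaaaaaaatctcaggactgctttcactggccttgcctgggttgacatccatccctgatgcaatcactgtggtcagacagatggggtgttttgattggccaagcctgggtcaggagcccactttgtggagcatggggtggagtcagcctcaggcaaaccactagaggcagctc
IL20RB: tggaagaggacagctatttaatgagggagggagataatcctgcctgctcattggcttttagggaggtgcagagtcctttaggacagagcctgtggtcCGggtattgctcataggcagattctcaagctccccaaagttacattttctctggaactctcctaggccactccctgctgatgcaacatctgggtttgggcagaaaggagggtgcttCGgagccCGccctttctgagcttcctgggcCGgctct
The windows lie at chrX:1268564-1268813 (CSF2RA), chrX:155997446-155997695 (IL9R), chr3:190513835-190514084 (IL1RAP), chr16:27427021-27427270 (IL21R) and chr3:136957733-136957982 (IL20RB). The IL21R and IL20RB windows lie inside their GENCODE 29 genes, which start at 27402162 and 136946230, since RefSeq lists later starts. The windows of CSF2RA, IL9R and IL1RAP run past the GENCODE 29 starts at 1268800, 155997581 and 190514051, and so lie partly inside those genes. IL1RAP held 33 CpG dinucleotides, a number reached by 8.17% of the 34961 human promoter windows searched. IL9R held 5, CSF2RA and IL20RB held 4 each, and IL21R held 0, against a median of 11 over all windows. These 5 starts thus ranged from CpG-poor to CpG-rich. Over all listed starts, the median was 18 CpG in the 26 windows of the 17 subunits called lower and 19 in the 2 windows of IFNAR1, called higher. It was 10.5 in the 18 windows of those not called, and 6.5 in the 16 windows of those under the filter. Windows were counted and not genes, so genes with many starts weigh more, and GHR alone gave 7 of those 16. A link between CpG number and fold change was not tested. Of the 43 subunits, 38 matched a window. On either strand, the GATA-type motif AGATAA was present in the IL9R and IL20RB windows and in 9.18% of all windows. The STAT-type motif TTCNNNGAA was in none of the 5 windows and in 6.57% of all, and the ETS-type motif GAGGAA was in the CSF2RA window and in 23.6% of all. Among all windows of the subunits called lower, AGATAA was in 11.5%, TTCNNNGAA in 11.5% and GAGGAA in 30.8%. Among windows of those not called, the shares were 22.2%, 11.1% and 33.3%. The link of these motifs to the fold changes was not tested. A match of letters is not a bound site.

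Among the common gamma chain and its partners, 5 of 7 tested subunits were lower in resistant cells, with the largest falls in IL9R and IL21R. IL9R, the private chain for interleukin 9, had 0.332, 0.528 and 0.341 CPM in resistant cells, against 20.1, 25.7 and 9.72 CPM in sensitive cells. Every resistant library lay far below every sensitive one. The log2 fold change was -5.51 ± 0.42 (SE; adjusted p = 1.73e-05), which is 45.6-fold lower. IL21R, the interleukin 21 receptor, had 4, 3 and 0 counts in resistant libraries, against 86, 99 and 27 counts in sensitive libraries. Its resistant levels were at or near the limit of detection, and its log2 fold change was -4.90 ± 0.82 (adjusted p = 0.00220), or -5.53 without resistant replicate 1. IL21R shares 23.3% of its exon bases with the antisense gene IL21R-AS1, which had 0 counts in the resistant libraries and 2, 4 and 6 counts in the sensitive libraries.

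IL15RA, which presents interleukin 15 to neighbouring cells, had 5.26, 4.50 and 5.69 CPM in resistant cells, against 18.2, 26.5 and 15.6 CPM in sensitive cells (log2 fold change -1.96 ± 0.23, adjusted p = 3.08e-04). IL4R, the interleukin 4 receptor alpha chain, had 6.73, 6.36 and 4.83 CPM in resistant cells, against 17.6, 22.4 and 19.7 CPM in sensitive cells (-1.74 ± 0.20, adjusted p = 2.44e-04). Neither gene's groups overlapped. The shared chain itself, IL2RG, had 0.166, 0.302 and 0.603 CPM in resistant cells, against 0.782, 0.812 and 3.21 CPM in sensitive cells. Its groups were close together except for sensitive replicate 3, and its log2 fold change was -2.15 ± 0.69 (adjusted p = 0.0480). Without sensitive replicate 3 the value was -1.14 (adjusted p = 0.229), without resistant replicate 3 it was -2.77 (adjusted p = 0.0219), and without resistant replicates 1 or 2 the adjusted p was 0.127 or 0.155. IL13RA1, which pairs with IL4R to bind interleukins 4 and 13, averaged 21.9 ± 1.01 CPM in resistant cells and 23.1 ± 4.66 CPM in sensitive cells (log2 fold change -0.07, adjusted p = 0.802). IL2RB, shared by the interleukin 2 and 15 receptors, had a value of -0.47 (adjusted p = 0.472). IL2RG shares 50.8% of its exon bases, on the same strand, with AL590764.2, which had 0 counts in every library, so its level is uncertain.

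Both remaining members of this group were under the filter. IL2RA, the high-affinity alpha chain for interleukin 2, had 0, 4 and 0 counts in resistant libraries, against 10, 39 and 30 counts in sensitive libraries. All sensitive counts exceeded all resistant counts, and with no filter its log2 fold change was -4.30 (adjusted p = 5.74e-06). Adjusted p-values of the fit with no filter are not comparable with those of the main fit. For IL4R they were 3.71e-12 with no filter and 2.44e-04 in the main fit, at log2 fold changes of -1.76 and -1.74. For IL2RB they were 0.617 and 0.472. IL7R, the interleukin 7 receptor, had 6 counts in all resistant libraries and 2 in all sensitive libraries, too few to compare.

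CSF2RA, the alpha chain that binds GM-CSF, was the subunit furthest down among all 34 tested. It had 6, 0 and 0 counts in resistant libraries, against 277, 233 and 372 counts in sensitive libraries. The transcript was near or under the limit of detection in all resistant libraries and at 6.77 to 9.96 CPM in the sensitive ones. Its log2 fold change was -7.13 ± 0.72 (adjusted p = 1.11e-04), -11.23 without resistant replicate 1, the resistant library that had counts, and -6.39 without both libraries numbered 3. CSF2RB, the common beta chain that transmits the GM-CSF, interleukin 3 and interleukin 5 signals, had 0.554, 0.302 and 0.970 CPM in resistant cells, against 2.76, 1.65 and 0.991 CPM in sensitive cells. The third libraries of the groups nearly touched, and the log2 fold change of -1.57 ± 0.53 did not pass (adjusted p = 0.0598). It passed without resistant replicate 3 (adjusted p = 0.0169), without sensitive replicate 3 (0.0398) and without both (-2.39, adjusted p = 2.93e-04). It also passed with DESeq2 (0.0226), with a replicate block (0.0478) and with no filter (0.00656, a value not comparable with the main fit). IL3RA, the alpha chain for interleukin 3, had a value of -0.85 (adjusted p = 0.205, and -1.29 at 0.0314 without both libraries numbered 3), and IL5RA, the alpha chain for interleukin 5, had 0.05 (adjusted p = 0.969). Sensitive replicate 3 decided that value: IL5RA had 14, 16 and 18 counts in resistant libraries, against 12, 2 and 32 counts in sensitive libraries, and its log2 fold change was 1.19 without that library (adjusted p = 0.306) and 1.08 without both libraries numbered 3. CSF2RA, IL3RA, CRLF2 and IL9R lie in regions shared by the X and Y chromosomes. Their counts stand under the X gene IDs, and how reads that match both copies were treated is not given in the sources used here, so their levels are less certain than those of the other subunits.

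In the gp130 group, 3 of 6 tested subunits were lower in resistant cells while gp130 itself did not pass. LIFR, the receptor for leukaemia inhibitory factor, had 2.46, 2.74 and 3.38 CPM in resistant cells, against 26.2, 29.4 and 35.2 CPM in sensitive cells. The replicates within each group lay close together, and LIFR was 10.6-fold lower (log2 fold change -3.40 ± 0.21, adjusted p = 4.67e-06). IL6ST, the signal-transducing chain used by the whole group, averaged 78.6 ± 3.64 CPM in resistant cells and 92.9 ± 17.8 CPM in sensitive cells (-0.24 ± 0.17, adjusted p = 0.344). Without both libraries numbered 3, its value was -0.41 and passed (adjusted p = 0.0108).

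IL6R, which binds interleukin 6, had 1.27, 1.16 and 1.29 CPM in resistant cells, against 2.79, 4.15 and 1.98 CPM in sensitive cells (log2 fold change -1.26 ± 0.35, adjusted p = 0.0278). OSMR, the oncostatin M receptor, had 0.471, 0.780 and 0.393 CPM in resistant cells, against 1.83, 1.47 and 1.07 CPM in sensitive cells (-1.41 ± 0.43, adjusted p = 0.0404). Neither gene's groups overlapped, but both calls were lost in some sets of 5 libraries, that of IL6R without resistant replicates 1 or 2 or sensitive replicates 1 or 2, with adjusted p up to 0.132, and that of OSMR without each of the resistant replicates or sensitive replicates 1 or 2, with adjusted p up to 0.158. IL27RA, which pairs with gp130 for interleukin 27, had -0.46 (adjusted p = 0.158, 0.0417 without resistant replicate 3, and 0.00533 without both libraries numbered 3). IL11RA, the interleukin 11 receptor, had 0.68 (adjusted p = 0.404), and CNTFR, the receptor for ciliary neurotrophic factor, had 2 counts in resistant and 3 in sensitive libraries. IL11RA shares 17.7% of its exon bases with other genes, so its level is uncertain.

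Of the receptors that act as pairs of 1 chain, LEPR and CSF3R were lower and EPOR did not pass. LEPR, the leptin receptor, had 28.4, 38.3 and 32.0 CPM in resistant cells, against 103, 119 and 109 CPM in sensitive cells (log2 fold change -1.75 ± 0.16, adjusted p = 5.94e-05). CSF3R, the G-CSF receptor of neutrophil precursors, had 1.25, 0.402 and 0.708 CPM in resistant cells, against 5.35, 7.30 and 4.71 CPM in sensitive cells (-2.88 ± 0.41, adjusted p = 9.71e-04). Their groups did not overlap. EPOR, the erythropoietin receptor of red cell precursors, had 13.7, 10.0 and 17.3 CPM in resistant cells, against 15.4, 12.9 and 10.7 CPM in sensitive cells. Its groups overlapped throughout (0.07 ± 0.23, adjusted p = 0.858). GHR, the growth hormone receptor, had 11 counts in resistant and 4 in sensitive libraries, and PRLR, the prolactin receptor, had 2 in each group.

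IL12RB2, the signalling chain of the interleukin 12 receptor, had 2.24, 1.63 and 1.08 CPM in resistant cells, against 9.31, 7.88 and 6.72 CPM in sensitive cells. It was lower in resistant cells with no overlap (log2 fold change -2.27 ± 0.31, adjusted p = 7.17e-04). Its partner IL12RB1 was under the filter, with 14 counts in resistant and 15 in sensitive libraries. CRLF2, which with IL7R forms the receptor for TSLP, had 0, 0 and 2 counts in resistant libraries, against 8, 8 and 8 counts in sensitive libraries. With no filter its adjusted p was 0.0578, a value not comparable with the main fit.

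Of the class 2 receptors, which include the interferon receptors, 3 of 7 tested were lower and 1 was higher. IFNGR1, the ligand-binding chain for interferon gamma, had 21.8, 29.1 and 30.8 CPM in resistant cells, against 124, 129 and 145 CPM in sensitive cells. It was 4.87-fold lower (log2 fold change -2.28 ± 0.18, adjusted p = 1.78e-05). IFNGR2, the chain that transmits the interferon gamma signal, averaged 44.3 ± 8.61 CPM in resistant cells and 40.6 ± 0.470 CPM in sensitive cells (0.13 ± 0.17, adjusted p = 0.628). IFNGR2 shares 12.8% of its exon bases with TMEM50B on the opposite strand, which had 1398 to 1825 counts per library. If strand was not used in counting, the IFNGR2 level is uncertain. IFNAR1, a chain of the type I interferon receptor, had the opposite direction, with 49.6, 49.8 and 44.7 CPM in resistant cells, against 27.3, 31.1 and 33.1 CPM in sensitive cells. Over all 6 libraries it was the only subunit of the 34 called higher (0.65 ± 0.15, adjusted p = 0.0102), and its groups did not overlap. The call was lost without resistant replicate 2 (adjusted p = 0.0693), sensitive replicate 1 (0.0746) or sensitive replicate 2 (0.0549). Its partner IFNAR2 had 0.32 (adjusted p = 0.692). IFNAR2 shares 83.3% of its exon bases with other genes, so its level is uncertain.

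IL20RB, a chain of the receptors for interleukins 19, 20 and 24, had 1.30, 1.18 and 1.36 CPM in resistant cells, against 30.3, 35 and 26.7 CPM in sensitive cells. It had the smallest adjusted p of the 34 (1.30e-06), at a log2 fold change of -4.58 ± 0.20, and was 23.9-fold lower. Its partner IL20RA had 2 counts in resistant and 0 in sensitive libraries. IL10RA, the ligand-binding chain for interleukin 10, had 7.81, 7.19 and 6.27 CPM in resistant cells, against 39.2, 66.8 and 24.2 CPM in sensitive cells (log2 fold change -2.61 ± 0.33, adjusted p = 4.31e-04). The sensitive libraries varied more than the resistant ones, without overlap. IL10RB, shared by receptors of the interleukin 10 family, had 0.75 (adjusted p = 0.474) but -0.03 without resistant replicate 1, and shares 38.1% of its exon bases with a read-through gene. IL22RA1, the interleukin 22 receptor, had 16 counts in resistant and 5 in sensitive libraries.

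In the IL-1 family the transcript of the accessory chain was lower in resistant cells, while over all 6 libraries those of the ligand-binding chains did not pass. IL1RAP, the accessory chain that the interleukin 1 and interleukin 33 receptors need to signal, had 0.249, 0.377 and 0.0787 CPM in resistant cells, against 6.33, 5.68 and 9.83 CPM in sensitive cells. Every resistant library had at most 15 counts and every sensitive one at least 189. The log2 fold change was -4.93 ± 0.48 (adjusted p = 8.78e-05), which is 30.4-fold lower, and -4.25 without both libraries numbered 3. IL1R1, the interleukin 1 receptor, had 0.04 (adjusted p = 0.954).

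IL1RL1, the interleukin 33 receptor, changed sign with 1 library. It had 1.38, 1.06 and 1.13 CPM in resistant cells, against 0.171, 0.210 and 4.74 CPM in sensitive cells, so sensitive replicate 3 was the highest of the 6 libraries and the other sensitive libraries the lowest. The log2 fold change was -0.52 ± 0.99 (adjusted p = 0.744) over all libraries and 2.62 (adjusted p = 0.00718) without sensitive replicate 3, or 2.65 (adjusted p = 6.80e-04) without both libraries numbered 3. The annotated gene of IL18R1, the interleukin 18 receptor, overlaps that of IL1RL1 on the same strand, and 2.18% of IL18R1 exon bases are shared with it. IL18R1 was also highest in sensitive replicate 3, with 3.32, 3.55 and 6.50 CPM in resistant cells, against 5.62, 4.66 and 19.9 CPM in sensitive cells (-1.18 ± 0.52, adjusted p = 0.138). Without sensitive replicate 3 its value was -0.21 (adjusted p = 0.717), and it passed with a replicate block (-0.94, adjusted p = 0.0226). It also passed with no filter (adjusted p = 1.30e-04), a value not comparable with the main fit. The T cell genes CD3D and CD3G were highest there too, at 95.2 and 17.4 CPM, against 18.5 to 28.2 and 3.43 to 6.45 CPM in the other sensitive libraries. Summed over 10 T and natural killer cell markers, the level was 4.35 to 7.14 CPM in resistant cells, against 25.2 to 115 CPM in sensitive cells. Most of the sensitive sum was CD3D, at 18.5 to 95.2 CPM. Of the 10, 7 were tested and CD3D, CD3E and CD3G were called, all lower in resistant cells. The other tested markers, CD5, NKG7, GNLY and ZAP70, lay in the higher direction and were not called (log2 fold changes 0.28, 0.49, 1.21 and 1.37). The median of the tested markers was 0.28. LCK had 4 counts over the resistant libraries and 0 over the sensitive ones, and CD2 had 4 over each. B cell markers summed to 10.0 to 10.8 CPM in resistant cells and 7.85 to 8.57 CPM in sensitive cells, with MS4A1 and IGHM at 0 and 1 of 7 called lower (CD79B). Monocyte markers summed to 1.96 to 2.38 CPM in resistant cells and 3.80 to 5.26 CPM in sensitive cells, with S100A8 at 0 and 2 of 7 called lower (VCAN and MSR1). Fibroblast and endothelial markers summed to 4.83 to 7.97 CPM in resistant cells and 1.32 to 3.40 CPM in sensitive cells, with COL1A2 higher and COL3A1 lower. The calls of CD79B, VCAN, MSR1 and COL3A1 were each lost without some single libraries, that of VCAN without resistant replicates 2 or 3 or any sensitive replicate. The part of these marker genes in the receptor results was not tested.

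IL17RB, which binds interleukin 25, had 6.31, 7.14 and 6.29 CPM in resistant cells, against 10.5, 12.7 and 8.28 CPM in sensitive cells. Its groups did not overlap, but the call sat at the threshold (log2 fold change -0.67 ± 0.22, adjusted p = 0.04999) and was lost in 11 of 17 alternative analyses. IL17RA, the chain shared by most interleukin 17 receptors, averaged 16.3 ± 1.70 CPM in resistant cells and 19.1 ± 0.591 CPM in sensitive cells (-0.23, adjusted p = 0.337). Across the 34 tested subunits, groups did not overlap for 21 that were lower and 1 that was higher, against 21.4% and 18.7% of all genes tested.

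Divided by exon length, the order of receptor levels differed between the groups. In resistant cells the highest levels were IFNGR2 at 15 ± 2.91, IL6ST at 8.46 ± 0.392, IFNGR1 at 8.30 ± 1.46 and IFNAR1 at 7.62 ± 0.457 CPM per kb (SD, n = 3). IFNGR1 lay within its spread of both IL6ST and IFNAR1. In sensitive cells the highest were IFNGR1 at 40.5 ± 3.27, IFNGR2 at 13.7 ± 0.159, IL20RB at 12.4 ± 1.68, IL6ST at 10.0 ± 1.92 and LEPR at 9.72 ± 0.685 CPM per kb. IFNGR1 stood apart from the rest, IFNGR2 and IL20RB lay within the spread of IL20RB of each other, as did IL6ST and LEPR within the spread of IL6ST, and IL20RB was at 0.518 ± 0.0374 CPM per kb in resistant cells.

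Because receptors work as pairs of chains, the balance between chains was compared in 19 pairs as a log2 ratio of levels per exon length. In 13 of the 19 pairs the 3 resistant and 3 sensitive ratios did not overlap. For single genes, groups did not overlap in 21.4% (lower) and 18.7% (higher) of all genes tested. The share among other pairs of genes was not computed, so whether 13 of 19 is unusual is not known. An exact two-sided permutation test of 3 against 3 cannot go below p = 0.1, and the smallest Benjamini-Hochberg value over the 19 was 0.146, so no pair could pass. The pairs share chains and are not independent. For interferon gamma, the IFNGR1 over IFNGR2 log2 ratio was -0.87, -0.75 and -0.93 in resistant cells, against 1.48, 1.51 and 1.69 in sensitive cells. By these counts the binding chain was the less abundant transcript in the resistant cells and the more abundant one in the sensitive cells. The ratio is uncertain to the extent that IFNGR2 shares exon bases with TMEM50B. For interleukin 1, the mean IL1R1 over IL1RAP log2 ratio was 3.91 ± 0.69 in resistant cells and -1.20 ± 0.80 in sensitive cells, again with the order of the chains exchanged. The LIFR over IL6ST log2 ratio averaged -5.14 ± 0.18 in resistant cells and -1.96 ± 0.46 in sensitive cells. Here gp130 was the more abundant chain in both groups. For GM-CSF, the CSF2RA over CSF2RB log2 ratio averaged -3.79 ± 2.32 in resistant cells and 2.61 ± 1.02 in sensitive cells, with 0.5 added to each count. The IL4R over IL13RA1 log2 ratio averaged -2.32 ± 0.20 in resistant cells and -0.63 ± 0.32 in sensitive cells. For type I interferon the IFNAR1 over IFNAR2 log2 ratios overlapped, at 4.66 ± 0.57 in resistant cells and 4.41 ± 1.02 in sensitive cells.

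**Figure D3:**
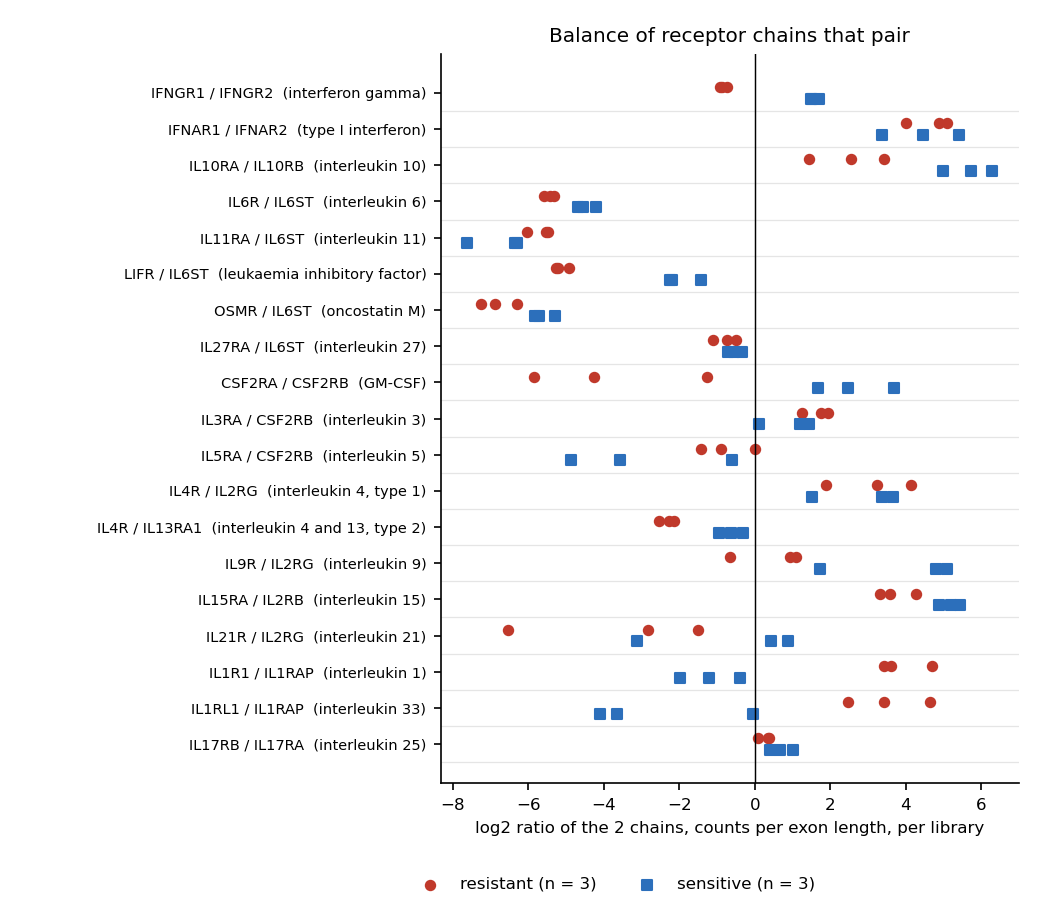
Log2 ratio of the 2 chains of each of 19 receptor pairs, per exon length, with 1 point per library and resistant and sensitive libraries in separate colours. IFNGR1 over IFNGR2 lies below 0 in the 3 resistant libraries and above 0 in the 3 sensitive libraries, and IL1R1 over IL1RAP lies above 0 in resistant and below 0 in sensitive libraries.

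Receptor genes that lie within 1 Mb of another receptor gene form 10 groups holding 24 of the 43 subunits. Some moved together and others did not. On chromosome 16, IL4R (27313668 to 27364778) and IL21R (27402162 to 27452042) were both lower, at log2 fold changes of -1.74 and -4.90. On chromosome 5, LIFR (38474963 to 38608354) and OSMR (38845858 to 38945596) were both lower, at -3.40 and -1.41. On chromosome 21, IFNAR2, IL10RB, IFNAR1 and IFNGR2 lie between 33229901 and 33479348 and had values of 0.32, 0.75, 0.65 and 0.13, of which IFNAR1 passed. In the shared region of the X chromosome, CSF2RA (1268800 to 1310381) was at -7.13 and its neighbour IL3RA (1336616 to 1382689) was at -0.85 and did not pass. CRLF2, in the same region and under the filter, had 2 counts over the resistant libraries and 24 over the sensitive ones. On chromosome 10, IL15RA was lower at -1.96. Its neighbour IL2RA, under the filter, had 4 counts over the resistant libraries and 79 over the sensitive ones. The size of the change thus differed between neighbours in some groups, and a link with position was not tested. Positions are from GENCODE 29 on GRCh38.

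**Figure D4:**
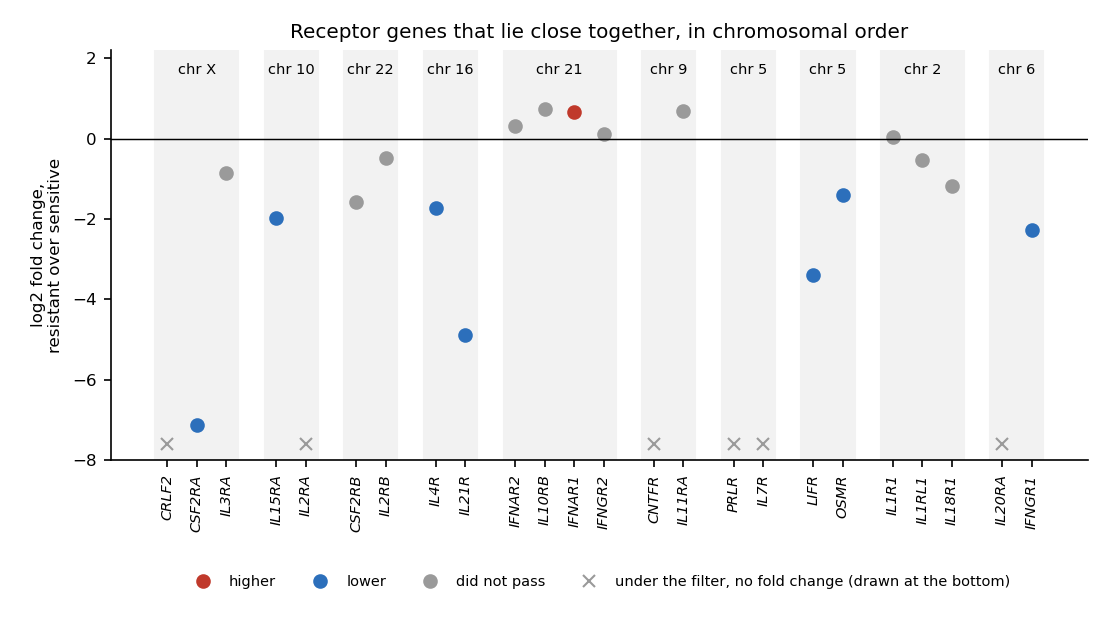
Log2 fold change, resistant over sensitive, of receptor genes within 1 Mb of another, in order along each chromosome. The 2 genes on chromosome 16 and LIFR with OSMR on chromosome 5 are lower together. CSF2RA and IL3RA are both below 0 but differ in size, and crosses at the bottom mark genes under the filter.

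Genes that act with the receptors were grouped in 7 lists, whose counts are to be read against the 13.1% of all genes tested that were lower and the 9.83% that were higher. Of 18 other receptors of the same families, 11 were tested, 1 was lower and 1 was higher, with a median log2 fold change of -0.04. IL23R, the private chain for interleukin 23, averaged 16.1 ± 4.98 CPM in resistant cells and 48.3 ± 2.89 CPM in sensitive cells (-1.59, adjusted p = 6.87e-04). IL17RD, a receptor that modulates FGF and interleukin 17 signalling, was higher at 2.22 (adjusted p = 0.0142), and the call was lost without resistant replicate 2 or sensitive replicate 1.

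Of 52 cytokine genes, 17 were tested, with 4 lower, 3 higher and a median of -0.62. IL23A, the private subunit of interleukin 23, fell by 1.86 on the log2 scale (adjusted p = 3.46e-04), and TSLP, a cytokine of barrier tissues, fell by 3.29 (adjusted p = 7.46e-04). EPO, the ligand of EPOR, was higher at 3.11 (adjusted p = 0.00625). At 0.649 ± 0.284 CPM in resistant cells and 0.0720 ± 0.0309 CPM in sensitive cells, EPO was at the limit of detection in the sensitive libraries. IL18, an IL-1 family cytokine, was lower at -0.97 (adjusted p = 0.0186), a call lost without resistant replicates 1 or 2 or sensitive replicate 2. Also called were IL3 (-2.95, lower), IFNK (1.48, higher) and CNTF (1.19, higher). The IL3 call was lost without resistant replicate 2 or any sensitive replicate, and its value was -3.66 without resistant replicate 1. The IFNK call was lost without resistant replicates 1 or 2 or any sensitive replicate, and the CNTF call without resistant replicates 1 or 2 or sensitive replicates 1 or 2. These 3 genes, like BCL2L1, PSMB9 and TAP1 later in the text, were named after their values were seen.

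Of 11 kinases and STATs, 2 were lower and none higher, a count near the 13.1% of all genes called lower, with a median of -0.31. JAK1, a kinase bound by many of these receptors, averaged 85.8 ± 10.7 CPM in resistant cells and 127 ± 1.28 CPM in sensitive cells (-0.57 ± 0.15, adjusted p = 0.0216). That call was lost without resistant replicates 1 or 2 or sensitive replicates 1 or 2. STAT4, which transmits the interleukin 12 signal, was at 1.69 ± 0.578 CPM in resistant cells and 7.10 ± 2.18 CPM in sensitive cells (-2.07 ± 0.35, adjusted p = 0.00227). JAK2, JAK3, TYK2, STAT3, STAT5A and STAT5B had values of 0.21, -0.31, -0.32, -0.20, 0.19 and -0.39 and did not pass, STAT5B passing without resistant replicate 3 (adjusted p = 0.0431).

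Of 11 tested adaptors of the IL-1 and IL-17 receptors, 2 were lower (IRAK4 at -0.86 and TRAF3IP2 at -0.95, adjusted p = 0.00162 and 0.00373) and 1 was higher (IRAK2 at 1.20, adjusted p = 0.00681), with a median of 0.16. Of 17 inhibitors of cytokine signalling, SOCS2 (-0.70) and the phosphatase gene PTPN6 (-0.72) were lower, at adjusted p of 0.0216 and 0.0352, none was higher, and both calls were lost without some single libraries. That count, too, is near the 13.1% of all genes.

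Among 15 tested targets of STAT5 and STAT3, 5 were lower and none higher, with a median of -0.50. CCND1, cyclin D1, averaged 1.67 ± 0.606 CPM in resistant cells and 35.2 ± 4.48 CPM in sensitive cells (-4.40 ± 0.29, adjusted p = 7.42e-06). The falls of JUNB (-0.80), SOCS2 (-0.70), PIM1 (-0.81) and BCL2L1 (-0.52) were smaller, and each of these calls was lost without at least 1 library. Among 16 tested interferon targets, 4 were lower and 2 higher, with a median of -0.13. GBP2, an interferon gamma target, averaged 0.289 ± 0.116 CPM in resistant cells and 7.15 ± 2.66 CPM in sensitive cells (-4.61, adjusted p = 8.53e-05). IFIT3 (-2.61) and the transcription factor IRF1 (-0.96) were also lower. IFIT2 had 0, 4 and 0 counts in resistant libraries, against 67, 70 and 46 counts in sensitive libraries, with a log2 fold change of -5.45 (adjusted p = 0.00135), or -8.94 without resistant replicate 2. PSMB9 (0.99) and TAP1 (0.91), which serve antigen presentation, were higher, and both calls were lost without some single libraries.

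**Figure D5:**
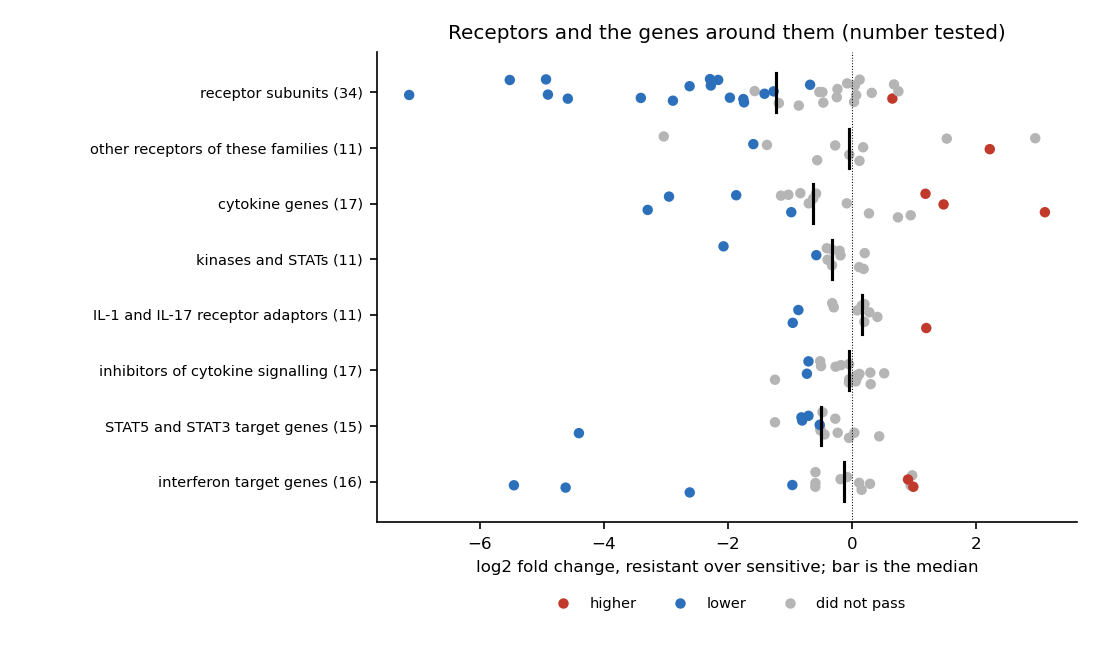
Log2 fold change, resistant over sensitive, of the tested receptor subunits and of 7 lists of genes that act with them, with 1 point per gene and a bar at each median. The receptor subunits have a median of -1.22, and the medians of the other lists lie between -0.62 and 0.16.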

How the data were processed

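RNA of 3 resistant and 3 sensitive K562 libraries was compared. The authors deposited a table of raw counts, 1 row for each Ensembl gene. GRCh38, Trimmomatic 0.39, HISAT2 2.2.1, Subread 2.0.3 and featureCounts are named in the submitters' processing notes. No source used here gives the annotation release or strand setting, so overlapping and antisense genes are uncertain. Genes with 2 counts outnumbered genes with 1 in every library, so counts were also divided by 2 and rounded. Replicates are labelled biological, but separate cultures are not stated, and the p-values reflect only how these 6 libraries vary.

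Genes were filtered with filterByExpr, scaled with TMM and tested over all genes with the robust quasi-likelihood test of edgeR 4.0.16 in R 4.3.3 (two-sided, Benjamini-Hochberg adjustment over 20891 genes, threshold 0.05). SE is the size of the log2 fold change divided by the square root of F, an approximation. DESeq2 1.42.0, limma-voom 3.58.1, other scalings and filters, a replicate block and leaving out libraries were alternatives. The limit of detection covers counting error only, unlike the SE and SD values, which also reflect how the libraries vary. Levels per kb use GENCODE 29 exon lengths.

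The receptors and the 7 pathway and 5 marker lists were chosen with earlier results of these data known. All called receptors are named, and up to 4 genes per pathway list with the smallest adjusted p, plus JAK1, JAK2, JAK3, TYK2, STAT3, STAT5A and STAT5B. A further gene of that rule is not reported here.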

Additional observations from a re-analysis of the deposited data

How the results depend on the processing

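Of the 18 receptor calls, 13 held under every alternative that tested them and 5 (IL2RG, IL6R, OSMR, IFNAR1 and IL17RB) were lost under at least 1. The number of receptors called lower stayed between 13 and 21 under all alternatives, against 17. The number called higher, 1, was 0 to 2 with a single library left out, 2 without both libraries numbered 3, 0 against a fold of 1.5 (glmTreat) and 0 at an adjusted p below 0.01. IL1RL1, at -0.52, ranged from -1.09 to 2.62 with a single library left out. It reversed to 2.62 without sensitive replicate 3 and to 2.65 without both libraries numbered 3, and the cause was not tested. Over all genes, 2054 were called higher and 2741 lower. These counts were 1051 to 3327 and 1677 to 3718 with a single library left out, 4645 and 5021 without both libraries numbered 3, 840 and 1429 against a fold of 1.5, and 938 and 1586 at an adjusted p below 0.01, the last 2 settings being stricter by construction. With library totals alone, 3041 were higher and 2118 lower, the median over all genes was 0.20 (log2) in place of 0.03, and 1 receptor was higher and 13 lower. Calls in the higher direction were 58.9% of all calls there and 42.8% with TMM. A replicate block gave 2859 higher and 3582 lower genes, with 1 receptor higher and 19 lower. The deviations of libraries with the same number correlated positively but weakly (0.202, 0.0850 and 0.299). Resistant replicate 1 matched sensitive replicate 2 best, and resistant replicates 2 and 3 matched their own numbers best. The labels state no pairing, so the numbers are not taken as pairs. Receptors with few counts, such as IL7R and PRLR, could not be compared at this depth.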

Other observations

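Some genes that overlap the receptors were counted separately, and their counts bear on the receptor levels if strand was not used in counting. IL20RB-AS1, antisense to IL20RB, had 9, 1 and 1 counts in resistant libraries, against 51, 33 and 19 counts in sensitive libraries, while IL20RB itself had 47, 47 and 52 counts in resistant libraries, against 1240, 1164 and 997 counts in sensitive libraries. LIFR-AS1, antisense to LIFR, had 4, 0 and 0 counts in resistant libraries, against 21, 17 and 30 counts in sensitive libraries. IL20RB-AS1 and LIFR-AS1 were thus low in the same libraries as their receptors, at far fewer counts. AC012467.2, antisense to IL17RB, was not, with 132, 106 and 88 counts in resistant libraries, against 128, 81 and 62 counts in sensitive libraries. RICTOR, which overlaps 3.19% of the exon bases of OSMR on the other strand, had 3494, 4243 and 3850 counts in resistant libraries, against 7357, 6074 and 7200 counts in sensitive libraries. OSMR had 15 to 31 counts in resistant libraries, against 40 to 75 counts in sensitive libraries. None of these differences was tested here.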
